A study of Homo sapiens with 4 samples.

Results

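The complement system is a set of plasma and membrane proteins that marks surfaces for removal and can open pores in cell membranes. The classical pathway acts through the proteases C1r and C1s, the alternative pathway uses factor B, and both converge on cleavage of C3. Factor I, C1 inhibitor and the membrane proteins CD46, CD55 and CD59 hold the cascade back. The liver makes most plasma complement, but epithelial and tumor cells also express several of these genes and usually carry the membrane regulators.

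Complement components and regulators were described in RNA-seq data of SKOV3 cells, a human ovarian cancer line. The 9 genes C3, C1R, C1S, CFB, CFI, SERPING1, CD46, CD55 and CD59 were taken by symbol, with the transcript of highest mean level for each, out of 19475 gene symbols in the table. The comparison was between 2 libraries of cells on tissue culture plate (TCP, day 0) and 2 libraries of spheroids formed on polymer X (day 8), a polymer thin film. The labels name no genetic change or inhibitor in either group. The maintenance medium in the methods contained fetal bovine serum and the spheroid medium serum replacement, while the labels give serum replacement for all 4 libraries. The substrate, the time in culture and possibly the medium thus differ between the groups all at once and cannot be told apart. The labels do not say whether replicates came from separate cultures, so the p-values measure the spread between these libraries only.

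Levels are FPKM, that is, tags scaled to transcript length and to the total of the library. The low values of each library, checked in shorter transcripts with 1 placement, fell on whole numbers of tags for totals of 38404000 to 44913000 tags. Genes that reached 1 FPKM in 2 or more libraries were tested, which left 11964. Log2 fold changes were taken on log2(FPKM + 1), which understates changes of low genes, and tested with limma (SE, standard error). A gene was said to rise or fall at an adjusted p under 0.05 and a log2 fold change of at least 1 in size. In bulk RNA, more RNA per cell and more cells of a given kind cannot be told apart.

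The labelled cell type was checked against 10 epithelial and ovarian cancer markers, whose summed level was 644 and 657 FPKM on TCP and 1280 and 1230 on polymer X. ERBB2 rose from 198 and 206 to 913 and 860 FPKM, a larger difference than that of the sum. MUC1, PAX8 and EPCAM also rose, with log2 fold changes of 2.63, 1.06 and 1.05, and EPCAM passed the filter only through polymer X. Thus 4 of the 8 tested markers rose and 0 fell. The keratins lay the other way without reaching the minimum, with log2 fold changes of -0.87 for KRT8, -0.44 for KRT18 and -0.76 for KRT7. KRT8, KRT18, ERBB2 and PAX8 were well expressed in all 4 libraries, while KRT19 and WT1 stayed under 1 FPKM. Of 10 hepatocyte markers, 9 were under 1 FPKM in every library, APOA1 and TTR were listed at 0, and ALB reached at most 0.108. SERPINA1, which hepatocytes share with other epithelia, was the exception and rose from 1.70 and 2.33 to 24.0 and 22.9 FPKM. Of 10 monocyte or macrophage markers, 9 were also under 1 FPKM in every library, and CD68, a lysosomal protein of many cells, rose with a log2 fold change of 1.29. The highest of the 9 was PTPRC, at 0.005 and 0 FPKM on TCP and 0.468 and 0.53 on polymer X. FCGR3A, TYROBP and AIF1 were listed at 0. Of the fibroblast list, 4 of 10 genes rose (COL1A2, COL3A1, DCN and LUM), and the summed level went from 17.2 and 18.1 to 87.7 and 77.1 FPKM. COL3A1, DCN and LUM had at most 0.232 FPKM on TCP and passed the filter only through polymer X. Another 5 stayed under 1 FPKM. Of these, FAP (0.058 and 0.14 FPKM on TCP, 0.988 and 0.5 on polymer X) and PDGFRA (0.103 and 0.084, then 0.254 and 0.291) were higher on polymer X. THY1 and POSTN were lower, and PDGFRB overlapped between the groups. The remaining gene, COL1A1, was at 8.21 and 8.48 FPKM on TCP and at 3.81 and 3.77 on polymer X (log2 fold change -0.96, short of the minimum). Over all tested genes 10.7% rose. The part of these marker genes in the results below was not tested.

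All 9 complement genes had higher values in both polymer X libraries than in both TCP libraries, a pattern seen in 41.9% of tested genes (48.4% had the opposite one). By the test, 6 of the 9 rose and 0 fell, against a background of 10.7% of tested genes higher and 9.45% lower. The same 6 had a log2 fold change above 2, which 2.35% of tested genes reached. The 6 were C3, C1R, C1S, CFB, CFI and SERPING1, and the 3 that did not reach the fold change minimum were the membrane regulators CD46, CD55 and CD59. All 9 passed the filter on low values, but CFB, CFI and SERPING1 did so only through the polymer X libraries, where they are high. Of the other 6 genes, 3 rose, against 7.84% of the tested genes that reached 1 FPKM in a TCP library. The median log2 fold change was 2.54 over the 9 genes, against -0.06 over all tested genes. It was 1.76 over those 6, against -0.11 over the tested genes that reached 1 FPKM in a TCP library.

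**Figure D1:**
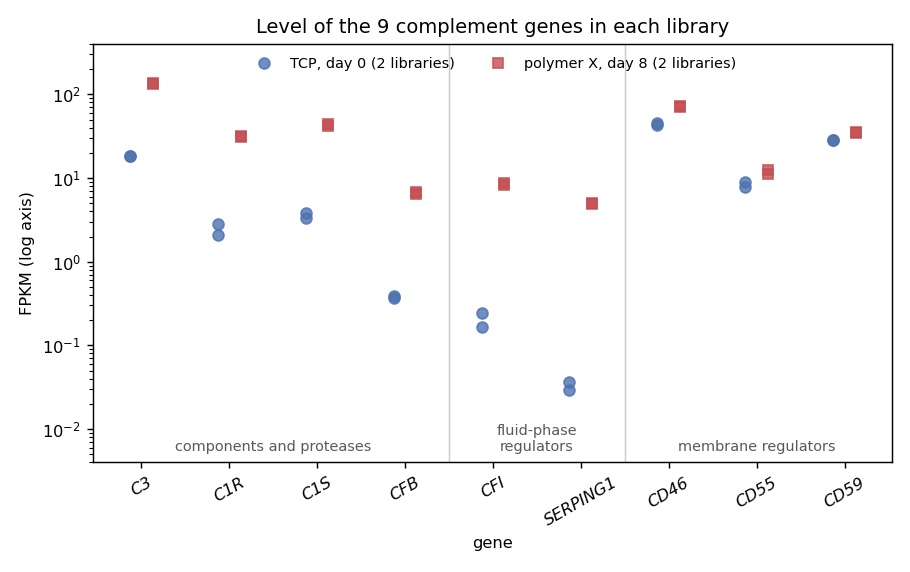
FPKM (log axis) of each of the 9 complement genes in the 2 TCP libraries (circles) and the 2 polymer X libraries (squares), 1 symbol per library. The groups do not overlap for any gene. The ratio of mean FPKM runs from 1.24 for CD59 to 152 for SERPING1, whose ratio of tags was 151 (interval 64.4 to 466).

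The sequence just before the gene start is given for 4 genes, to set 2 genes that rose with matches to cytokine response motifs (CFB, C1R) beside one that rose without (CFI) and one that did not reach the fold change minimum but has a match (CD59). Each run is the 250 bases before an annotated start in RefSeq on GRCh38.p14, on the strand of the gene, and capitals mark the matches. For C1R and CD59, which have several annotated starts, 1 window is printed.
CFB, chr6:31945845-31946094, plus strand: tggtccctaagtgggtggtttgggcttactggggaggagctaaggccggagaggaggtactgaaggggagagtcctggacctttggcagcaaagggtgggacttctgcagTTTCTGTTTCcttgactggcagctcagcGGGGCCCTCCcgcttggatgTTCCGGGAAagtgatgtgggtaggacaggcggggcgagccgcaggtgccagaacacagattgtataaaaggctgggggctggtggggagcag
C1R, chr12:7091894-7092143, minus strand: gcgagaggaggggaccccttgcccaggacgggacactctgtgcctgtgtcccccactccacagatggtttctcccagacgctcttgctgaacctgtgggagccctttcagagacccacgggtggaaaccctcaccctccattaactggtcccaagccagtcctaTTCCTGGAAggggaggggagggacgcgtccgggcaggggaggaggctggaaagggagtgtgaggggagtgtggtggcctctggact
CFI, chr4:109802000-109802249, minus strand: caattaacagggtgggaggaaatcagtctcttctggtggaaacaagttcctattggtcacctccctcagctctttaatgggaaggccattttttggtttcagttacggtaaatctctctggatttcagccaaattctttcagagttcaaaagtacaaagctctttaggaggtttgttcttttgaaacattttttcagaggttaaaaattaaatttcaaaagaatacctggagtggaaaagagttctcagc
CD59, chr11:33736480-33736729, minus strand: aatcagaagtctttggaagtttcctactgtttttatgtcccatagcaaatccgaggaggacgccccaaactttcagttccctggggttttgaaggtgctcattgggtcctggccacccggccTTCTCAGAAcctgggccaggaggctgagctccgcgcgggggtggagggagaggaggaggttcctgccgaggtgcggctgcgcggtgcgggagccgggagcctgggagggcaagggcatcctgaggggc

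Windows were available for 6 of the 9 genes (C1R, CFB, CFI, CD46, CD55 and CD59; 11 windows in all) and were searched on both strands for 3 motifs. The GAS element bound by STAT proteins was written as TTCNNNGAA, the interferon-stimulated response element (ISRE) as GAAA, NN and GAAA in a row, and the NF-kappaB motif is given by its name. The GAS letters were found before 3 of the 6 genes (CFB, C1R and CD59), against 8.09% of all 27305 genes with a window and 6.57% of all 35116 windows of that length. Of the 11 windows 4 held a match, as the same letters of CD59 lie in a pair of overlapping windows. The other windows of CD59 held none. A gene with more windows has more room for a match, so the shares per gene are not a like background for these genes. The ISRE letters were found before CFB only, against 3.71% of genes and 3.02% of windows, and the NF-kappaB motif before CFB only, against 11.8% of genes and 9.96% of windows. In CFB the 3 matches do not overlap and lie 140 to 131 (ISRE, minus strand), 112 to 103 (NF-kappaB) and 92 to 84 bases (GAS) before the start. The GAS match of C1R lies 86 to 78 bases before one of its 2 starts and is not in the window of the other. These are matches of letters, which do not show binding, and both a gene that rose (CFI) and genes that did not reach the minimum (CD46 and CD55) had none of the 3.

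C3 is the central component, whose cleavage products tag surfaces and drive the rest of the cascade. Its level (NM_000064, hg19 chromosome 19, 6677846 to 6720693) was 18.3 and 18.4 FPKM on TCP, and 132 and 138 FPKM on polymer X. Both polymer X libraries were thus far above both TCP libraries, with little difference within a group. The means were 18.4 ± 0.0735 and 135 ± 4.19 FPKM (SD, n = 2), a log2 fold change of 2.81 (SE 0.05, limma adjusted p = 7.9e-10) and a ratio of 7.34. Ranked by level among all 19475 symbols, C3 stood at 3425 and 3380 on TCP and at 253 and 235 on polymer X. C3 and the tested genes outside the set were each centred on their own mean log2(FPKM + 1) and compared over the 4 libraries. The 3 genes nearest to C3 were PAPLN, DHRS3 and TCN2, at Euclidean distances of 0.019, 0.044 and 0.059. These distances hold on that scale, which understates changes of low genes, and do not show like ratios of FPKM. DHRS3 was at 0.098 and 0.101 FPKM on TCP and at 6.34 and 6.999 on polymer X. DHRS3 thus passed the filter only through polymer X, and its ratio was far above that of C3.

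C1R and C1S encode the paired serine proteases of the C1 complex, which cleave C4 and C2 once C1q has bound a target. C1R (NM_001733, hg19 chromosome 12, 7187515 to 7245203) was at 2.80 and 2.11 FPKM on TCP, and at 32.0 and 31.1 on polymer X. C1S (NM_001346850, hg19 chromosome 12, 7167965 to 7178335) was at 3.81 and 3.29 FPKM on TCP, and at 43.9 and 42.4 on polymer X. Both genes were low on TCP and rose above CD55 on polymer X, and C1S also rose above CD59. The log2 fold change was 3.24 for C1R (SE 0.09, limma adjusted p = 4.6e-09), a ratio of 12.9. It was 3.28 for C1S (SE 0.07, limma adjusted p = 1.2e-09), a ratio of 12.2, and these were the largest changes among the 9 genes on this scale. The intervals of the changes (95%) overlapped, from 3.03 to 3.45 for C1R and from 3.12 to 3.44 for C1S. The FPKM of C1S was 1.36 and 1.56 times that of C1R on TCP and 1.37 and 1.36 times on polymer X, so the partners kept nearly the same proportion while both rose. The transcribed spans of the pair lie 9179 bases apart on opposite strands, and no transcript of another symbol overlapped them.

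CFB encodes factor B, the protease of the alternative pathway C3 convertase. It was at 0.392 and 0.370 FPKM on TCP, from 38 and 42 tags, and at 6.46 and 6.75 FPKM on polymer X, from 653 and 693 tags. The gene was thus low but detected on TCP, and its log2 fold change was 2.46 (SE 0.08, limma adjusted p = 6.8e-09). The ratio was 17.3, and the ratio of tags was 17.4, with an exact interval (95%) of 13.9 to 22.0 that covers counting error only. Its level is uncertain in scale, because the transcript (NM_001710) is placed at 7 positions in hg19, which holds alternative haplotypes of this stretch of chromosome 6. Of the 160 chromosome 6 symbols with at least 5 placements, 85.6% had a mean FPKM under 1, against 39.7% of all other symbols. Genes that every cell uses were among them, with NELFE and CSNK2B listed at 0 in all 4 libraries and RPS18 at 0.262 to 2.00 FPKM. Without CFB, 5 of 8 genes rose, against 10.7% of all tested genes.

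CFI and SERPING1 encode inhibitors that act in the fluid phase. Factor I, the product of CFI, is itself a serine protease and cleaves C3b and C4b with the help of cofactors such as CD46. CFI (NM_001331035, hg19 chromosome 4, 110661848 to 110723381) was at 0.168 and 0.246 FPKM on TCP, from 14 and 24 tags, and at 8.80 and 8.32 FPKM on polymer X. The groups were far apart, with a log2 fold change of 2.99 (SE 0.08, limma adjusted p = 3.2e-09) and a ratio of 41.3. SERPING1 encodes C1 inhibitor, the serpin that inactivates C1r and C1s. It (NM_001032295, hg19 chromosome 11, 57365705 to 57382326) was at 0.029 and 0.037 FPKM on TCP, from only 2 and 3 tags, and at 5.08 and 4.96 FPKM on polymer X, from 367 and 364 tags. SERPING1 was thus at the limit of detection on TCP and clearly expressed on polymer X. Its log2 fold change was 2.54 (SE 0.08, limma adjusted p = 6.7e-09). The ratio of tags was 151, with an exact interval (95%) of 64.4 to 466. On the scale of log2(FPKM + 1) CFB, CFI and SERPING1 changed less than C1R and C1S, but with a pseudocount of 0.1 they led the set with log2 fold changes of 3.80, 4.83 and 5.27, against 3.64 for C1R and 3.57 for C1S.

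CD46, CD55 and CD59 protect the cell that carries them. CD46 is the cofactor for factor I at the membrane, CD55 speeds the decay of C3 convertases, and CD59 blocks assembly of the membrane attack complex. CD46 (NM_172353, hg19 chromosome 1, 207925383 to 207968861) was at 45.1 and 42.6 FPKM on TCP, and at 73.3 and 71.6 on polymer X. CD55 (NM_001300902, hg19 chromosome 1, 207494817 to 207514111) was at 8.92 and 7.87 FPKM on TCP, and at 12.5 and 11.2 on polymer X. CD59 (NM_203331, hg19 chromosome 11, 33724556 to 33758025) was at 28.5 and 28.1 FPKM on TCP, and at 35.8 and 34.3 on polymer X. All 3 were well expressed in both conditions, and the groups did not overlap, but the gaps were small. The log2 fold change of CD46 was 0.71 (SE 0.06, limma adjusted p = 2.2e-06), a ratio of 1.65. That of CD55 was 0.45 (SE 0.08, limma adjusted p = 5.9e-04) and that of CD59 was 0.30 (SE 0.06, limma adjusted p = 7.3e-04), ratios of 1.41 and 1.24. An adjusted p under 0.05 with a positive change was common here, at 37.4% of tested genes (43.6% had a negative one). Ordered from the most negative to the most positive log2 fold change, 82.8% of tested genes lay below CD46, 74.5% than CD55 and 68.2% than CD59. With quantile normalization the change of CD46 was 1.02 and passed the minimum.

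**Figure D2:**
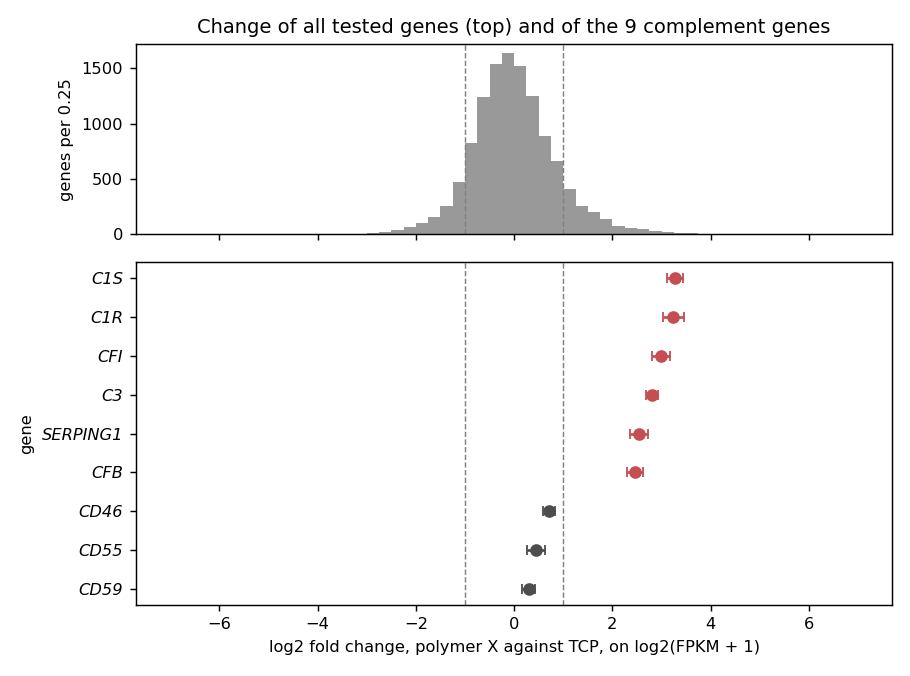
Top, number of tested genes per 0.25 step of log2 fold change (polymer X against TCP) over all 11964 tested genes. Bottom, the log2 fold change of each of the 9 complement genes with its interval (95%, limma); dashed lines mark a change of 1 in either direction, red points the 6 genes that rose, from 2.46 for CFB to 3.28 for C1S, and dark points the membrane regulators at 0.30 to 0.71.

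The intervals of the 3 membrane regulators and of the 6 secreted genes did not overlap, with an upper limit of 0.84 for CD46 and a lower limit of 2.29 for CFB. The difference between the 2 sets of genes was not tested as such. In FPKM, which is scaled to length, the order of levels changed with the condition. On TCP it was CD46, CD59, C3, CD55, C1S, C1R, CFB, CFI and SERPING1, and on polymer X it was C3, CD46, C1S, CD59, C1R, CD55, CFI, CFB and SERPING1. In both orders each gene lay above the next one in both libraries of the group. The place of CFB, and with it its exchange with CFI, rests on a level that is uncertain in scale. The summed level of C3, C1R, C1S and CFB was 25.3 and 24.2 FPKM on TCP and 214 and 218 on polymer X. That of CD46, CD55 and CD59 was 82.6 and 78.6 on TCP and 122 and 117 on polymer X. The ratio of the first sum to the second was thus 0.307 and 0.308 on TCP and 1.76 and 1.86 on polymer X. CD46, CD55 and CD59 made up 76.4% and 76.2% of the summed level of the 9 genes on TCP and 34.8% and 33.6% on polymer X. C3 alone made up 16.9% and 17.9% on TCP and 37.7% and 39.6% on polymer X. These sums are descriptions of RNA levels and carry no test.

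**Figure D3:**
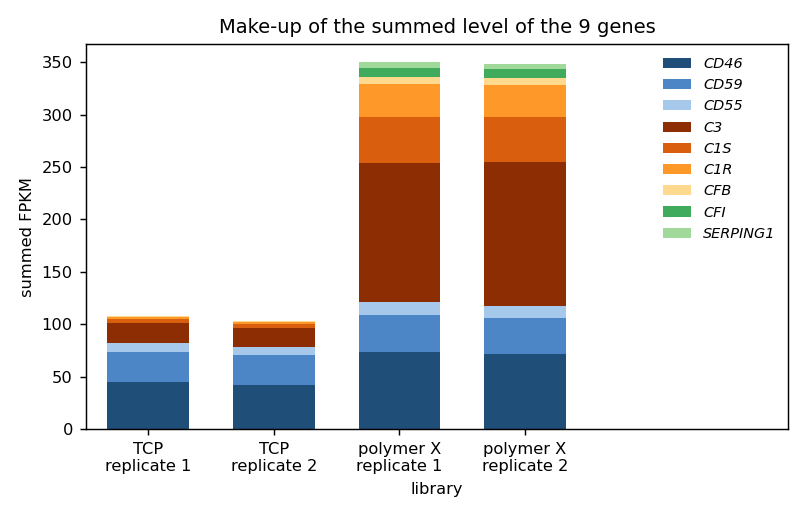
Summed FPKM of the 9 complement genes in each of the 4 libraries, split by gene from CD46 at the bottom to SERPING1 at the top. The sum was 108 and 103 on TCP and 350 and 349 on polymer X, and most of the added height is C3, C1S and C1R.

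The transcripts listed for a gene share tags and gave nearly the same picture. The 9 genes had 33 transcripts, of which CD46 and CD59 had 8 each and CD55 had 5. Over its transcripts the log2 fold change was 0.71 for CD46 throughout, and it ran from 0.40 to 0.45 for CD55 and from 0.30 to 0.33 for CD59. It ran from 3.24 to 3.25 for C1R, from 3.25 to 3.28 for C1S, from 2.95 to 2.99 for CFI and from 2.45 to 2.54 for SERPING1. C3 and CFB were listed with 1 transcript each. No transcript of another symbol overlapped any of the 9 genes at their listed positions. For the genes with 1 placement, tags counted without strand were thus not shared with an antisense gene in this annotation. CFB was compared only at its listed position, on an alternative haplotype of chromosome 6, and not at its other placements.

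The rest of the pathway was followed in a list of 50 other complement genes. Of these, 19 were listed at 0 in every library, 22 had some signal but did not pass the filter, and 9 were tested. Of the 9, 5 rose and 1 fell, against 10.7% and 9.45% of all tested genes. COLEC12, ITGAX, ITGB2 and THBD passed the filter only through polymer X, where they are high, and all but THBD rose. The tested genes of this list that reached 1 FPKM in a TCP library were C1RL, CFD, MASP2, CLU and C1QBP. Of these, C1RL and CFD rose and C1QBP fell, and 7.84% of all tested genes at that TCP level rose.

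Among the proteases, C1RL, a relative of C1R next to it on chromosome 12, rose from 2.97 and 3.43 to 19.9 and 19.3 FPKM (log2 fold change 2.30, adjusted p = 7.8e-09 from limma). CFD, the factor D that activates factor B, rose from 7.34 and 7.99 to 17.4 and 19.2 FPKM (log2 fold change 1.16). MASP2, a protease of the lectin pathway, was at 1.12 and 1.06 FPKM on TCP and 2.23 and 2.42 on polymer X and did not reach the minimum. CLU, which encodes the fluid-phase inhibitor clusterin, was at 12.2 and 11.1 FPKM on TCP and 8.60 and 8.99 on polymer X, short of the minimum.

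Of the receptors, ITGAX and ITGB2, whose products pair as complement receptor 4, both rose. ITGAX went from 0.159 and 0.255 to 10.2 and 13.1 FPKM (log2 fold change 3.38) and ITGB2 from 0.587 and 0.631 to 4.28 and 4.20 FPKM (log2 fold change 1.70). ITGAM, the alternative partner of ITGB2 in complement receptor 3, had at most 0.063 FPKM. COLEC12, a membrane collectin listed here as a recognition molecule, rose from 0.742 and 0.556 to 2.71 and 1.98 FPKM with a log2 fold change of 1.01 that lay at the minimum. THBD was at 0.795 and 0.868 FPKM on TCP and at 1.22 and 1.08 on polymer X (log2 fold change 0.23). C1QBP, a mitochondrial protein first found as a C1q binding protein, was the gene that fell, from 93.1 and 92.8 to 29.2 and 28.4 FPKM (log2 fold change -1.66, adjusted p = 8.1e-09 from limma).

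Recognition molecules other than COLEC12 and the terminal pathway were under 1 FPKM in every library. C1QA, C1QB, C1QC, MBL2 and FCN1 were listed at 0 in all 4 libraries. COLEC11, a collectin of the lectin pathway, was at 0.079 and 0.034 FPKM on TCP and at 0.698 and 0.686 on polymer X, from 4, 2, 37 and 37 tags, and was too low to be tested. COLEC10, FCN2 and FCN3 had at most 0.086, 0.027 and 0.169 FPKM. The terminal components C6, C7, C8A, C8B and C9 were also listed at 0, and C5 and C8G had at most 0.187 and 0.230 FPKM. C2 had at most 0.013 FPKM. C4A was at 0.030 and 0.008 FPKM on TCP and 0.267 and 0.253 on polymer X, and C4B at 0.029 and 0.004 on TCP and 0.260 and 0.247 on polymer X. None of the 3 was tested, and they lie in the same multiply placed stretch of chromosome 6 as CFB, and C4A and C4B are near-identical copies. The receptors CR1 and CR2 and the regulators C4BPA and C4BPB, which lie near CD55 and CD46 on chromosome 1, were listed at 0.

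**Figure D4:**
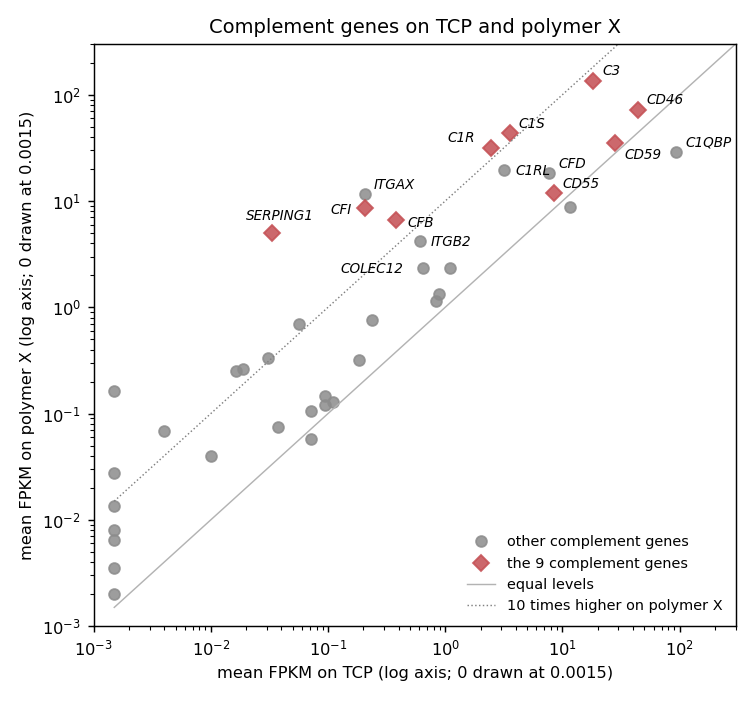
Mean FPKM on TCP (horizontal) and polymer X (vertical) of the 9 complement genes (diamonds) and the other complement genes with any signal (circles), on log axes with values of 0 drawn at 0.0015; the 9 genes and those of the others that rose or fell are named. SERPING1, CFI, CFB, C1R and C1S and, of the tested others, ITGAX lie above the dotted line of 10 times, as do some genes too low to be tested, CD46, CD55 and CD59 lie close to the line of equal levels, and C1QBP lies below it.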

How the data were processed

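The authors deposited FPKM values for 50078 RefSeq transcripts of hg19, with 3 decimals, made with HOMER (analyzeRepeats.pl, tags on exons of both strands, per the file headers). The submitters' processing notes also list STAR 2.4.0 and DESeq, with no role given. The command in the header lists further libraries that were not analysed here. The number of tags per library was found as the total for which low values became whole numbers of tags. Only shorter transcripts with 1 placement entered this search, and 100.0% of their low values lay within 0.1 in each library. A transcript of 2000 bases with 3 tags then has an FPKM of 0.0334 to 0.0391.

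Per symbol, the transcript with the highest mean of the 4 FPKM columns was kept. All tested genes entered 1 fit of log2(FPKM + 1) in limma 3.58.1 (R 4.3.3), with a mean-variance trend, no block and Benjamini-Hochberg adjustment. FPKM are not counts, so no count model was used. Every member is named with its values, and of the other complement genes at least every gene called. One gene of that list is not reported here. The members and lists were chosen with earlier results of these data known. The procedure was tested on simulated data with 200 changed genes, far fewer than rose or fell here. That run does not measure error rates on these data. Promoter windows came from RefSeq (GRCh38.p14), and figures were drawn with matplotlib 3.10.9. Alternatives were another pseudocount, filter, scaling or transcript choice, the replicate number as a block, and each library left out. Same-numbered libraries deviated together with a correlation of 0.0927, so no pairing was assumed.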

Additional observations from a re-analysis of the deposited data

How the results depend on the processing

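The 6 complement genes that rose did so under every alternative in which they were tested, and CD46 also passed under quantile normalization (1.02). When only genes with a mean level of 5 FPKM or more were tested, 3 of the 6 remaining complement genes rose. Of the other complement genes, 5 were then tested and 3 rose. That filter left 702 higher genes out of 8166 tested. Without a fold change minimum all 9 had adjusted p under 0.05, as did 4477 genes higher and 5212 lower, and 7 other complement genes were higher and 2 lower (C1QBP and CLU). With a minimum of 2 on the log2 scale the counts were 281 higher and 150 lower over all genes, and 2 and 0 among the other complement genes. Leaving out each library in turn kept 6 of the 9 complement genes higher and 0 lower, and gave 4 to 5 other complement genes higher and 1 lower, 1289 to 1325 genes higher in all and 1053 to 1234 lower. The lone library left in a group was assumed to vary like the other group. The log2 fold changes of CFB, CFI and SERPING1 depend most on the pseudocount (2.46, 2.99 and 2.54 with 1, and 3.80, 4.83 and 5.27 with 0.1). With the replicate number as a block, 6 of the 9 complement genes, 5 other complement genes and 1285 genes in all were higher, and no call among the 9 changed. Counting only the 8 genes with 1 placement, chosen after seeing the data, 5 rose, against 10.7% of all tested genes. Depth limits SERPING1 on TCP, with 5 tags in all.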

Other observations

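C1S, C1R and C1RL are neighbours on chromosome 12, and the genes that follow them were also higher on polymer X. This was noticed after the values were seen. RBP5, a retinol binding protein 14402 bases beyond C1RL, went from 1.60 and 1.40 to 5.54 and 6.50 FPKM (log2 fold change 1.49). CLSTN3, 21092 bases beyond C1RL, went from 2.05 and 2.05 to 10.1 and 11.1 FPKM (log2 fold change 1.92). On the other side, LPCAT3, 42122 bases from C1S, was at 8.51 and 8.02 FPKM on TCP and 9.71 and 7.37 on polymer X, and the groups overlapped. Within 50000 bases of the other members, the genes that rose were GPR108 and SH2D3A near C3 (log2 fold changes 1.08 and 1.13) and UBE2L6 and YPEL4 near SERPING1 (1.64 and 1.09), and GAR1 near CFI fell (-1.36). YPEL4, at 0.046 and 0.052 FPKM on TCP, passed the filter only through polymer X. The other tested neighbours neither rose nor fell: TRIP10 (C3), STK19 (CFB), CASP6 and PLA2G12A (CFI), CLP1 (SERPING1), and FBXO3 and KIAA1549L (CD59). Over all tested genes 10.7% rose and 9.45% fell.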
